A study of Mus musculus with 20 samples.

Results

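A group of 9 genes of fat cells and of fatty acid synthesis was read out in left ventricle of aging male mice on 4 diets, out of 15956 genes listed in the counts. The members were Adipoq, Plin1, Cfd, Cidec, Ucp1, Car3, Fasn, Elovl6, and Scd1, and each was found by its symbol among the Ensembl identifiers. They were chosen from measured values of these same libraries, in which single mice had stood out, so their levels and fold changes are a description. The p-values given for them come from a fit across all genes to the same values that chose them, and are not independent evidence of a difference. The 4 groups held 5 mice each, and all mice carry an age of 18 months in the labels, although the methods of the study describe an earlier age at collection. NP mice ate a normal protein diet with casein as the protein source, and LP mice a low protein version of it. HF mice ate a high-fat diet rich in lard at the normal protein level, and HF + LP mice a high-fat diet at the low protein level. The low protein diets also held more carbohydrate, and the high-fat diets less. A change in protein or fat therefore cannot be told apart from the change in carbohydrate here. No other treatment and no genetic change is named, and each library is the ventricle of 1 mouse.

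Total counts lay between 12559607 and 23331907 per library, and the deposited counts came from libraries that sample the 3′ ends of transcripts. Levels are given as normalized counts, which are counts divided by library size and a trimmed-mean (TMM) factor and scaled to the average library. A count of 0 in a library allows up to 3 counts, and such limits cover counting error only. All 9 members passed the filter on low counts, and all 9 had a mean normalized count over 50. For Plin1, Cidec, and Elovl6 this rested on LP mice 13 and 20. Their group means were over 50 in LP alone, and were 14.7, 8.42, and 23.4 over the other LP mice. Plin1 and Cidec did not pass the filter once the library with the most Adipoq in each group was left out.

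White adipocytes store triglyceride in a large droplet coated by perilipin 1, secrete adiponectin and adipsin, and surround the heart in small depots. Brown and beige adipocytes burn fat through the uncoupling protein UCP1 in their mitochondria. Fatty acid synthase builds palmitate from malonyl-CoA, ELOVL6 lengthens it, and SCD1 places a double bond in it. Insulin and carbohydrate drive these enzymes through SREBP1 and ChREBP in liver and fat. In bulk tissue, fewer cells of a type and less RNA per cell cannot be told apart.

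RefSeq promoters on GRCm38.p6 were found for 7 of the 9 members, and none for Scd1 and Car3. Of these, 3 are shown because they stand for the 3 patterns described below. Adipoq followed the other fat cell genes, Ucp1 left NP mouse 6 out, and Fasn stood far above the other libraries only in LP mice 13 and 20. The windows are of equal length. Each runs from 250 bases before to 50 bases after the start site, 5′ to 3′ on the gene's own strand. The capitals mark matches, on either strand, to the motifs that were searched.
Adipoq, chr16:23146286-23146585, plus strand: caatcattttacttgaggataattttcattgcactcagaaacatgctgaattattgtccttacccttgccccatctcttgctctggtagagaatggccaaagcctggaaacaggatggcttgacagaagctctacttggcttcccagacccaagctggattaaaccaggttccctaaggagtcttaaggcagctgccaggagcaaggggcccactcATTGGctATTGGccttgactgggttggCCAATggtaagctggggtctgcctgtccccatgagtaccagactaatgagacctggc
Ucp1, chr8:83290098-83290397, plus strand: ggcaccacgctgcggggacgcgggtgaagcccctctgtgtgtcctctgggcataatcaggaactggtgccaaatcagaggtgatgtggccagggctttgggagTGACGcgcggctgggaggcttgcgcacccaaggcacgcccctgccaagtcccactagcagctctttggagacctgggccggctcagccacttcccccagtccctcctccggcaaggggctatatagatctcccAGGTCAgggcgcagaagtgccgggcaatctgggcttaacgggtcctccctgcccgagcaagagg
Fasn, chr11:120824498-120824797, minus strand: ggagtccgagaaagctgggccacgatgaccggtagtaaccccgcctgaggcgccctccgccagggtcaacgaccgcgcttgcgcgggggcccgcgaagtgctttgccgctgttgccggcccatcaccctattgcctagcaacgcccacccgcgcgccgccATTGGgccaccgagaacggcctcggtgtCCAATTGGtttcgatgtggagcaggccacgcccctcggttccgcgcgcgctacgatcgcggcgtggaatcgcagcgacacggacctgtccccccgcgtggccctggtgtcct

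The motifs were CCAAT (held by 37.4% of all 32851 promoters of that length), GGGCGG (35.7%), TGACG (20.8%), AGGTCA (16.3%), TATAAA (13.6%), TTGCNNAA (10.8%), and CACGTG (7.15%). CCAAT matched the Adipoq promoter 3 times, at positions -34, -27, and -7 from the start site. It matched the Fasn promoter 3 times, at -90, -62, and -59, and the last of these overlaps the one before it on the other strand. Ucp1 held TGACG (position -147 from the start site) and AGGTCA (position -14). TTGCNNAA was found in Cidec and Plin1, and AGGTCA also in Elovl6. The matches are positions of letters in these windows and nothing more.

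Adipoq (ENSMUSG00000022878, chr16:23146536-23158028, plus strand) encodes adiponectin, the hormone by which adipocytes are most often recognised. Its normalized count in NP mice 3, 4, 5, 6, and 8 was 11, 38.2, 10.5, 201, and 88.2. In LP mice 2, 5, 13, 15, and 20 it was 10.6, 11.3, 1208, 31.5, and 481. In HF mice 1 to 5 it was 14, 2.64, 280, 1.76, and 6.14, and in HF + LP mice 1 to 5 it was 2.08, 2.14, 46.6, 3.36, and 11.3. LP mice 13 and 20 stood above every other library, HF mouse 3 stood alone in its group, and all 4 groups overlapped. The LP mean was 348 ± 521 (SD, n = 5) against a median of 31.5, and the NP mean was 69.8 ± 80.0 against a median of 38.2. The LP median was thus below the NP median although the LP mean was the highest of the 4.

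**Figure D1:**
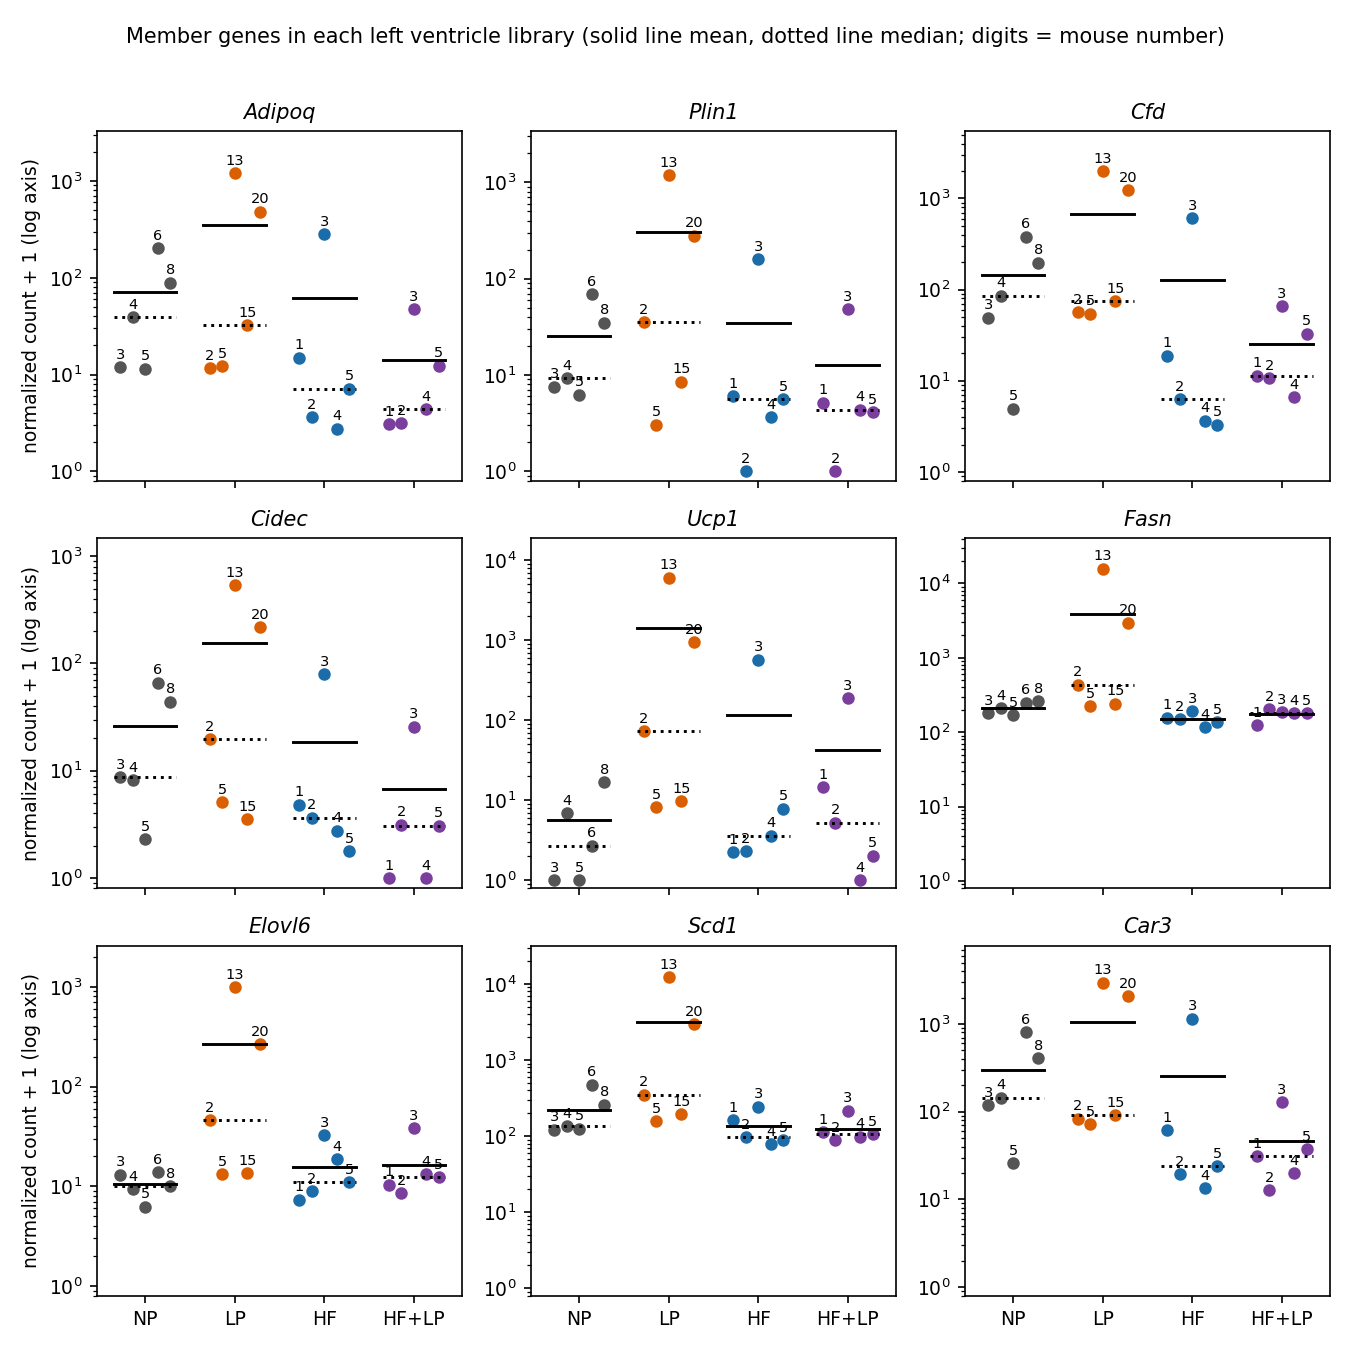
Normalized count plus 1 on a log axis for each member in each of the 20 libraries, by diet group, with the mouse number beside each point, the group mean as a solid line and the group median as a dotted line. LP mice 13 and 20 lie above the other LP mice for all 9 genes, and HF mouse 3 lies far above its group for Adipoq, Plin1, Cfd, Cidec, Ucp1, and Car3.

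The other secreted member and the droplet members had the same mice on top. Cfd (chr10:79890853-79892655, plus strand), the complement factor adipsin, was at 1991 in LP mouse 13 and 1231 in LP mouse 20, against 53.3 to 73.1 in the other 3 LP mice. In HF mouse 3 Cfd was at 604, while the other 4 HF mice lay between 2.3 and 17.8. Plin1 (chr7:79720218-79732903, minus strand), the coat protein of the fat droplet, was at 1194 and 278 in LP mice 13 and 20, and at 34.6 or less in the others of that group. Cidec (chr6:113424634-113435760, minus strand), which enlarges droplets by fusing them, was at 535 and 216 in the same mice and at 18.6 or less in the rest of the LP group. In NP, mouse 6 was the highest for Adipoq, Cfd, Plin1, and Cidec, with Cfd at 379 and Plin1 at 68.0, and mouse 8 was the next.

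Car3 (chr3:14863512-14872523, plus strand) encodes carbonic anhydrase III, an enzyme abundant in fat, liver, and slow skeletal muscle. Its normalized count was 2953 in LP mouse 13, 2057 in LP mouse 20, 1149 in HF mouse 3, 799 in NP mouse 6, and 407 in NP mouse 8. The remaining libraries lay between 11.8 and 143. The order of these 5 mice was the same as for Adipoq, and Car3 tracked Adipoq over the 20 libraries more closely than any other member did. Pearson's r of their log2 normalized levels was 0.98 and Spearman's rho was 0.94, and r was 0.96 without LP mice 13 and 20, the libraries farthest from the median.

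Ucp1 (chr8:83290352-83298452, plus strand), the uncoupling protein of brown and beige fat, reached 6037 in LP mouse 13, 952 in LP mouse 20, 568 in HF mouse 3, and 188 in HF + LP mouse 3. LP mouse 2 was at 71.8, and LP mice 5 and 15 at 7.18 and 8.82. NP mice 3, 4, 5, 6, and 8 were at 0, 5.97, 0, 1.72, and 15.8. The other 4 HF mice lay between 1.27 and 6.90 and the other 4 HF + LP mice between 0 and 13.5. NP mouse 6, which followed only LP mice 13 and 20 and HF mouse 3 for Adipoq, thus had hardly any Ucp1.

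Counts of Ucp1 and Adipoq within a library showed this directly. NP mouse 6 had 2 counts of Ucp1 and 234 of Adipoq, so that Ucp1 made up 0.847% of both (95% exact binomial interval 0.103 to 3.03%). In HF mouse 3 it made up 67.0% (63.9 to 69.9%), in LP mouse 20 66.4% (64.3 to 68.5%), in HF + LP mouse 3 80.2% (74.6 to 84.9%), and in LP mouse 13 83.3% (82.6 to 84.0%). NP mouse 8 had 14 counts of Ucp1 to 78 of Adipoq, a share of 15.2% (8.58 to 24.2%). The intervals of NP mice 6 and 8 lay below those of the 4 mice named from other diets. Outside NP, mice with less Adipoq had low as well as high shares. LP mouse 15 (7 counts of Ucp1 to 25 of Adipoq) was at 21.9% (9.28 to 40.0%), and HF mouse 1 (1 to 11) at 8.33% (0.211 to 38.5%). LP mouse 2 (54 to 8) was at 87.1% (76.1 to 94.3%). The intervals cover counting error only. No test between diets was made on these shares, and the mice named first were picked for their high Adipoq.

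Fasn (chr11:120805846-120824547, minus strand) encodes fatty acid synthase. It was at 178, 210, 169, 249, and 258 in NP mice 3, 4, 5, 6, and 8. In LP mice 2, 5, 13, 15, and 20 it was at 434, 221, 15710, 241, and 2951. HF mice 1 to 5 were at 155, 148, 191, 116, and 135, and HF + LP mice 1 to 5 at 123, 202, 185, 180, and 178. The highest level outside the LP group was 258, and there the highest library of a group held 23.2% to 25.7% of its summed level, near an equal share. All 5 HF + LP mice lay below all 5 LP mice. In the other comparisons of diets the groups overlapped for Fasn, and for the other members they overlapped in every comparison. Among all genes tested, 0.951% had every HF + LP mouse below every LP mouse.

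Scd1 (chr19:44394455-44407879, minus strand), stearoyl-CoA desaturase 1, was at 12305 in LP mouse 13 and 2982 in LP mouse 20, and LP mice 2, 5, and 15 were at 350, 156, and 195. NP mice 3, 4, 5, 6, and 8 were at 121, 134, 125, 473, and 259. HF mouse 3 was at 242 and the others of its group at 77.4 to 163, and HF + LP mouse 3 was at 215 and the others at 87.6 to 112. Scd1 thus shared its highest mouse in every group with Adipoq, but with smaller distances outside LP. Elovl6 (chr3:129532355-129638495, plus strand), the elongase of palmitate, was at 997 in LP mouse 13, 265 in LP mouse 20, and 45.2 in LP mouse 2. The other 17 libraries lay between 5.25 and 37.1. The Elovl6 gene overlaps 2 further annotated genes, neither of which is listed in the counts. Reads of Scd1 and its near relatives Scd2, Scd3, and Scd4 may have been split by the counting.

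LP mouse 2 stood out in another way. Its Adipoq was at 10.6 and its Cfd at 55.9, within the range of LP mice 5 and 15 or below it, whereas its Ucp1, Plin1, Cidec, Elovl6, Fasn, and Scd1 each came next after mice 13 and 20. For Ucp1 it was at 71.8 against 8.82 in the next LP mouse, and for Elovl6 at 45.2 against 12.6.

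The level of Fasn relative to Adipoq differed widely among the 4 libraries with the most Adipoq. LP mouse 13 had 13.0 counts of Fasn for each count of Adipoq and LP mouse 20 had 6.14. NP mouse 6 had 1.24 and HF mouse 3 had 0.682. For Car3 the same ratio was 2.44 and 4.28 in LP mice 13 and 20, 3.97 in NP mouse 6, and 4.10 in HF mouse 3. Car3 therefore stayed within a narrow span of Adipoq, and Fasn and Ucp1 did not. HF mouse 3 combined a high Ucp1 with a Fasn of 191, which was inside the range of the NP group.

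**Figure D2:**
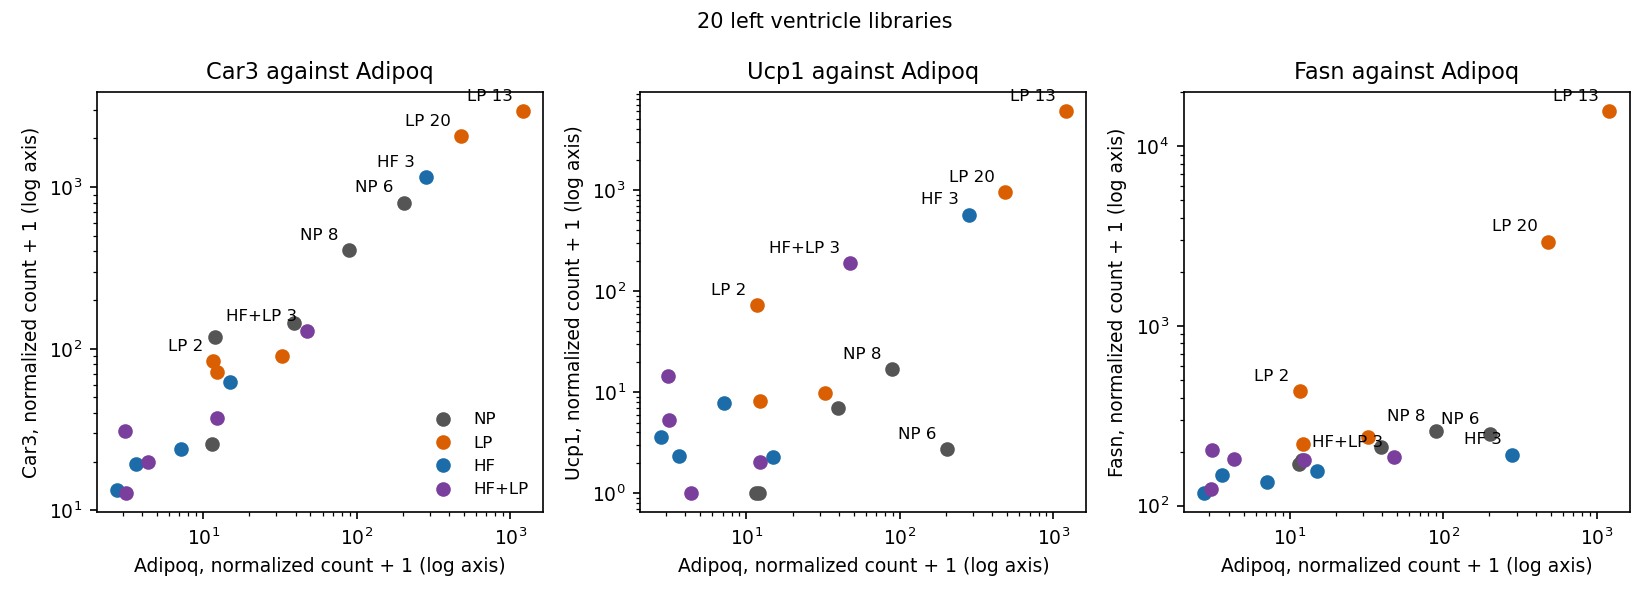
Normalized counts plus 1 of Car3, Ucp1, and Fasn against Adipoq on log axes, with 1 point for each of the 20 libraries, coloured by diet group. Car3 follows Adipoq along a line, NP mouse 6 lies at 1.72 for Ucp1 despite 201 for Adipoq, and for Fasn only LP mice 13 and 20 leave the level of the other libraries by far.

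Correlations among members depended on these libraries to different extents. They are descriptions over 20 libraries that share tissue and processing. The median Pearson's r over the 36 pairs of members was 0.85. For Adipoq with Cfd it was 0.95, and 0.91 without LP mice 13 and 20. For Fasn with Elovl6 it was 0.93 and without them 0.42, and for Ucp1 with Fasn 0.78 and 0.32. The genes outside the group that were most like Adipoq were Retn (resistin, r = 0.93), Pck1 (0.92), Lep (leptin, 0.92), Glb1l2 (0.91), and Nnat (0.90). Those most like Car3 were Retn (0.95), Lep (0.92), Pck1 (0.91), Nnat (0.90), and Adrb3, the beta-3 adrenergic receptor (0.90). Those most like Fasn were Acaca (acetyl-CoA carboxylase, 0.98), Gpd2 (0.97), Acly (ATP citrate lyase, 0.96), Slc25a1 (the citrate carrier, 0.94), and Gpd1 (0.94). Those most like Ucp1 were Pck1 (0.91), Prkar2b (0.90), Peli1 (0.89), Adrb3 (0.87), and Arxes2 (0.84). Spearman's rho was lower than r for each of these genes. It ran from 0.37 (Gpd1) to 0.75 (Acaca) with Fasn, and from 0.59 (Arxes2) to 0.80 (Peli1) with Ucp1. With Adipoq it was 0.75 (Pck1) to 0.88 (Nnat), and with Car3 0.80 (Adrb3) to 0.90 (Retn). Gpd1 was at 4971 and 1354 in LP mice 13 and 20, against a median of 561 over the 20 libraries.

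Single libraries set the group means. In LP, mouse 13 held between 56.2% (Car3) and 85.3% (Ucp1) of the summed level of the 5 mice, and mice 13 and 20 together held 94.6% (Cfd) to 98.8% (Ucp1). In HF, mouse 3 held 89.7% to 97.9% for Adipoq, Plin1, Cfd, Cidec, Ucp1, and Car3, but 42.9% for Elovl6, 36.3% for Scd1, and 25.7% for Fasn. In HF + LP, mouse 3 held 52.9% (Cfd) to 90.9% (Ucp1) for those 6 genes. In NP, mouse 6 held 52.5% to 57.6% for Adipoq, Plin1, Cfd, Cidec, and Car3, and mouse 8 held 67.3% for Ucp1. A library with over 50% of its group was found for all 9 members among LP mice and for 6 of 9 among NP, HF, or HF + LP mice, each. Over the 10159 genes with a mean normalized count above 50, the share of genes with such a library was 0.305% for NP, 1.37% for LP, 0.374% for HF, and 0.335% for HF + LP. Nothing is read from this contrast, since the members were selected on it. In the LP group, mouse 13 held over 50% for 71 genes and mouse 20 for 60.

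**Figure D3:**
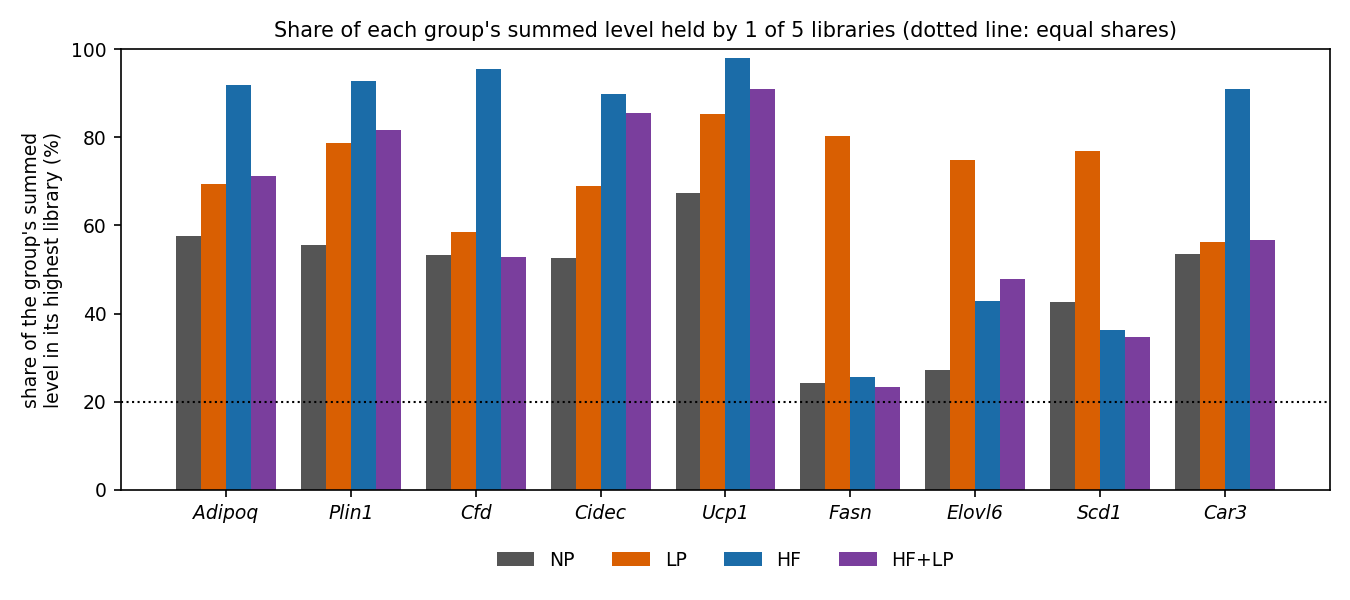
Share of the summed normalized count of each diet group that lies in its highest library, in percent, for each member; the dotted line marks an equal share of 5 libraries. Bars for Fasn outside LP are near the line at 23.2% to 25.7%, while HF mouse 3 carries 97.9% of Ucp1 in HF.

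Leaving out the highest library changed the means accordingly. The HF mean of Adipoq was 61.0 ± 123 (SD, n = 5), and 6.13 ± 5.57 over the other 4 mice. The HF mean of Ucp1 was 116 ± 253 and without mouse 3 it was 3.03 ± 2.66. The HF + LP mean of Ucp1 was 41.4 ± 82.3 and without mouse 3 it was 4.71 ± 6.16. Over LP mice 2, 5, and 15 alone, the mean was 17.8 for Adipoq, 60.8 for Cfd, 80.9 for Car3, 29.3 for Ucp1, 298 for Fasn, 23.4 for Elovl6, and 234 for Scd1. The corresponding NP means over 5 mice were 69.8, 142, 298, 4.70, 213, 9.53, and 222. With the 2 highest mice of each gene left out of NP as well, the NP means were 19.9 for Adipoq, 45.7 for Cfd, 94.9 for Car3, 0.574 for Ucp1, 186 for Fasn, 7.55 for Elovl6, and 126 for Scd1. The mean of Cfd was thus lower over the 3 LP mice than over all 5 NP mice, but higher than over the NP mice left after the same removal. Plin1 and Cidec turned in the same way. Plin1 had a mean of 14.7 over the 3 LP mice, 24.4 over the 5 NP mice, and 6.73 after the removal. For Cidec these means were 8.42, 24.9, and 5.39. The LP mean of Ucp1 over 3 mice rested on mouse 2 at 71.8. For Fasn and Elovl6 mouse 2 was likewise the only one of the 3 above the NP range. It was at 434 for Fasn, where mice 5 and 15 were at 221 and 241 and NP at 169 to 258. For Elovl6 it was at 45.2, where mice 5 and 15 were at 12.3 and 12.6 and NP at 5.25 to 12.9.

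The study asked what protein restriction and high fat do to the heart, and 4 comparisons and the interaction of fat and protein follow from the diets. Calls required an adjusted p (Benjamini-Hochberg) under 0.01 from edgeR's quasi-likelihood test together with a mean normalized count over 50. No member was called in any of the 5. Over all 13991 genes tested, 0.264% were called for HF against NP, 0% for LP against NP, 0% for HF + LP against HF, 0.1% for HF + LP against LP, and 0% for the interaction. At an unadjusted p under 0.05, 1, 6, 0, 9, and 9 members passed in that order, where 1831, 1012, 677, 2227, and 1003 of all genes did. The comparisons share their NP, LP, HF, or HF + LP libraries with each other.

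For LP against NP all 9 members had a higher fitted level, with a median log2 fold change of 3.58 beside 0.02 over all genes and adjusted p-values of 0.383 to 0.819. The log2 fold change was 4.20 (SE 0.87) for Fasn, 4.78 (SE 0.99) for Elovl6, 3.84 (SE 0.93) for Scd1, 8.22 (SE 2.21) for Ucp1, 2.3 (SE 1.25) for Adipoq, and 1.81 (SE 1.20) for Car3. The direction depended on which libraries were left out. Without LP mouse 13 alone all 9 were higher with a median of 1.7, and without the library with the most Adipoq in each group all 7 members that could be tested were higher with a median of 2.23 (Adipoq 1.86, Car3 1.73). Without both LP mice 13 and 20, and with all NP mice kept, 4 of 9 were higher and the median was -0.83. Adipoq then stood at -2.00 (SE 1.41), Car3 at -1.89 (SE 1.28), Ucp1 at 2.58 (SE 2.1), Elovl6 at 1.24 (SE 0.59), Fasn at 0.48 (SE 0.21), and Scd1 at 0.06 (SE 0.46). Of the LP mice left in that fit, only mouse 2 lay above the NP range for Ucp1, Elovl6, and Fasn. DESeq2 on all libraries called Fasn and Elovl6 here, both at an adjusted p of 0.00061, in a comparison where it called 0.0216% of genes higher. Elovl6 reached the mean normalized count needed for a call only through LP, where its group mean was 267. Its group means were 9.53 in NP, 14.7 in HF, and 15.5 in HF + LP. The call for Fasn and Elovl6 thus turned on the tool, and no value without mice 13 and 20 passed in edgeR.

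**Figure D4:**
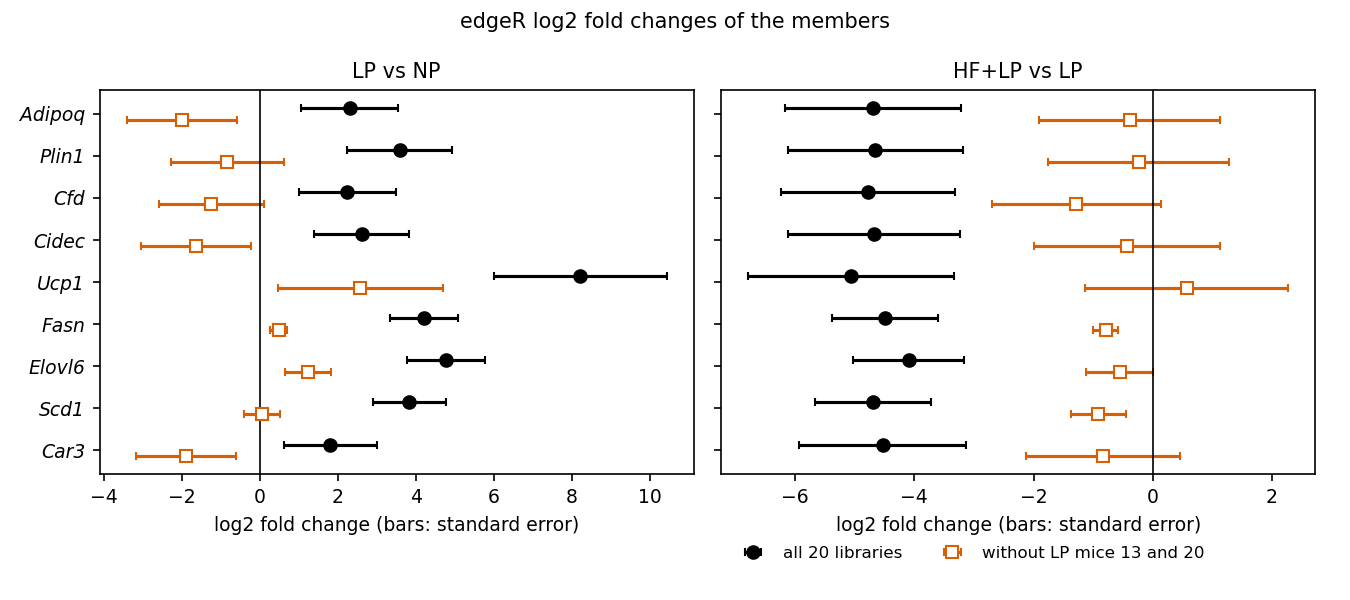
Log2 fold changes of the members with standard errors, for LP against NP and for HF + LP against LP, fitted to all 20 libraries (black circles) and without LP mice 13 and 20 (open squares). In the left panel Adipoq moves from 2.3 to -2.00, and in the right panel the median of the 9 members moves from -4.68 to -0.56.

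For HF + LP against LP all 9 members had a lower fitted level, with a median of -4.68 beside -0.03 over all genes and adjusted p-values of 0.0233 (Fasn) to 0.164 (Ucp1). Fasn was at -4.49 (SE 0.88), Scd1 at -4.69 (SE 0.97, adjusted p = 0.0327), and Elovl6 at -4.09 (SE 0.93, adjusted p = 0.0583). At an adjusted p under 0.05, Fasn and Scd1 passed, as did 0.2% of all genes in that direction. No member passed 0.05 with the library number as a factor (lowest adjusted p = 0.168, median log2 fold change -4.40) or with only those groups in the fit (0.362, median -4.69 over the 7 members tested). The same held without LP mouse 13 (0.0607) and without any 1 of the HF + LP mice (0.0526 to 0.0869), whereas without LP mouse 5 Fasn was called (0.00818). DESeq2 called Fasn, Scd1, and Elovl6, and 0.302% of all genes as lower. The mean normalized count that a call requires was reached by Elovl6 only through LP. Its group mean was 267 in LP and 15.5 in HF + LP. The median of the members was -2.89 without LP mouse 13 alone, and -4.56 over the 7 members tested without the library with the most Adipoq in each group, and all members tested were lower in both. Without LP mice 13 and 20 together the median was -0.56, Fasn was at -0.79 (SE 0.21, adjusted p = 0.231), Scd1 at -0.91 (SE 0.46), and Ucp1 at 0.57 (SE 1.7).

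The remaining comparisons also turned on single mice. For HF against NP the median over members was -0.19, and Ucp1 was at 4.64 (SE 2.20, adjusted p = 0.376). The sign for Ucp1 rested on HF mouse 3, without which it was at -0.42. Without HF mouse 3 the median was -2.94, and without NP mouse 6 it was 0.62. For HF + LP against HF the median was -1.53, without HF mouse 3 it was 1.19 with all 9 members higher, and without HF + LP mouse 3 it was -3.43. For the interaction the median was -4.50 with adjusted p-values of 0.614 to 0.689, and without LP mice 13 and 20 it was -0.59. Without HF mouse 3 alone it was -1.72. In the fit without the library with the most Adipoq in each group, 7 members were tested. Their median was -0.69 for HF against NP, -0.07 for HF + LP against HF, and -2.17 for the interaction. The spread of LP also entered the error of comparisons that hold no LP library. Fasn for HF against NP was at -0.52 in both fits, with an SE of 0.80 over all libraries and 0.19 without LP mice 13 and 20 (adjusted p = 0.865 and 0.155).

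Related genes were read from 5 lists. Of other genes of fatty acid synthesis and of SREBP1 or ChREBP targets, 24 of 27 were tested. Their median log2 fold change was 0.28 for LP against NP and -0.18 for HF + LP against LP, and 1 gene was called in any comparison. This was Mlxipl, which encodes ChREBP, the transcription factor that answers to glucose in lipogenic tissue. Mlxipl was lower in HF than in NP, at 201, 190, 195, 164, and 168 in HF mice 1 to 5 against 247, 365, 302, 320, and 269 in NP mice 3, 4, 5, 6, and 8, and the groups did not overlap. Every HF library lay below every NP library for 3.6% of all genes tested. Its log2 fold change was -0.71 (SE 0.13, edgeR adjusted p = 0.00857), and it was called in 9 of 30 alternative analyses, with adjusted p-values of 0.000156 to 0.089. For HF + LP against LP it was at -0.66 (SE 0.13, adjusted p = 0.0233). LP mice 13 and 20 were at 368 and 300, inside the range of the other LP mice, so Mlxipl did not share the pattern of the enzymes.

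Acaca, the committed step of fatty acid synthesis, did share it. Acaca was at 1635 in LP mouse 13 and 370 in LP mouse 20, and between 75.7 and 134 in the other 18 libraries. Slc25a1, which carries citrate out of mitochondria, was at 860 and 227 in those mice and at most 108 elsewhere. Scd2 was at 460 and 353 in them and at most 167 elsewhere. For HF + LP against LP the adjusted p was 0.0562 for Acaca, 0.0745 for Slc25a1, and 0.0828 for Scd2, and DESeq2 called the first and the second. Acsl3, an acyl-CoA synthetase, was at 0.74 (SE 0.19, adjusted p = 0.387) for LP against NP. LP mouse 13 was the highest LP mouse for 19 of the 24 genes, and for 30% of all genes tested.

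Of other white adipocyte genes, 20 of 22 were tested and none was called by edgeR. Their median log2 fold change was 0.49 for LP against NP and -0.45 for HF + LP against LP, and LP mouse 13 was the highest LP mouse for 16 of 20, beside 30% of all genes. Retn, the hormone resistin, was at 169 and 146 in LP mice 13 and 20 and at most 33.6 elsewhere. Pck1, an enzyme of glyceroneogenesis in fat, was at 2565 and 456 in them, at 331 in HF mouse 3, and at 61.1 or less elsewhere. Trarg1 was at 1117 in LP mouse 13 and 171 in LP mouse 20. Cd36, the fatty acid transporter, which cardiomyocytes also express, went the other way: it was at 10167 to 10719 in HF + LP and at 5654 to 9054 in LP, with the lowest values in LP mice 13 and 20. Its log2 fold change for HF + LP against LP was 0.55 (SE 0.11, adjusted p = 0.0226), and DESeq2 called it.

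Of other brown adipocyte genes, 8 of 13 were tested and none was called. Their median was -0.09 for LP against NP. LP mouse 13 was the highest LP mouse for 4 of the 8 genes, LP mouse 5 for the other 4, and LP mouse 20 for 0, where over all genes tested these mice were the highest for 30%, 21%, and 20.7%. Cidea, a droplet protein of brown fat that the heart also expresses, was at 2820 in LP mouse 13 and between 557 and 1182 elsewhere. Dio2, which activates thyroid hormone, was at -1.0 (SE 0.23, adjusted p = 0.217) for HF + LP against HF, and its levels were 77.8 to 120 in HF and 34.4 to 58.0 in HF + LP. Pank1 and Acot11 were at 0.48 and -0.55 for HF + LP against LP, with adjusted p-values of 0.198 and 0.276. Without LP mouse 13 they were at 0.35 and -0.19, and without LP mice 13 and 20 at 0.33 and -0.01. Among genes named only after their values were seen, Elovl3 was at 194 in LP mouse 13, 53.8 in LP mouse 20, and 0 in HF mouse 3, and Otop1 was at 248, 43.1, and 16.6 in the same mice.

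Of other lipid droplet proteins and lipases, 11 of 11 were tested, none was called, and the median was 0.09 for LP against NP and 0.16 for HF + LP against LP. Plin5, the droplet coat of oxidative muscle, was lowest in LP mice 13, 20, and 15, at 1064, 1284, and 1388, and its log2 fold change for HF + LP against LP was 0.75 (SE 0.19, adjusted p = 0.0836). Mgll was at 0.49 (adjusted p = 0.102), Abhd5 at 0.28 (adjusted p = 0.239), and Fitm1 at -0.33 for LP against NP (adjusted p = 0.642). Of other carbonic anhydrases, 8 of 15 were tested and none was called, with medians of 0.05 and -0.05. Car14, the membrane form of heart, was at 1313 to 1593 in HF and at 1706 to 2365 in NP (log2 fold change -0.47, SE 0.12, adjusted p = 0.0502). Car5b, the mitochondrial form, was at 136 in LP mouse 13, 54.5 in LP mouse 20, 31.4 in HF mouse 3, and at most 18.5 elsewhere. Car11 and Car4 had adjusted p-values of 0.129 and 0.13 for HF + LP against LP.

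Markers of other cell types differed among the same libraries, and their part in the levels of the members was not tested. The summed level of 6 cardiomyocyte markers was between 444247 and 707267 in all libraries, so that cardiomyocyte transcripts were abundant in each, and was lowest in its group in LP mouse 20, HF mouse 3, and HF + LP mouse 3. LP mouse 13, at 480946, was next to the lowest of LP. The 4 atrial markers summed to 245765 in LP mouse 13, 73697 in HF mouse 3, and 87124 in HF + LP mouse 3, where the group medians were 26523 (LP), 3228 (HF), and 2451 (HF + LP). Atrial markers were also at 204494 in HF mouse 1, where Adipoq was at 14, and at 5739 in NP mouse 6, where Adipoq was at 201. Mesothelial markers, of the outer surface of the heart, summed to 950 in LP mouse 13, 993 in LP mouse 20, 491 in HF mouse 3, and 947 in HF + LP mouse 3, each of them first or second in its group, and to 219 in NP mouse 6, the lowest of NP. Vascular smooth muscle markers reached 4871 in LP mouse 13 and at most 2680 elsewhere.

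Lymphoid markers summed to 643 in LP mouse 20 and to at most 84.9 in any other library, and Cd3e, a component of the T cell receptor complex, was at 256 there and at most 8.18 elsewhere. Schwann cell markers reached 650 in LP mouse 13, 393 in LP mouse 20, and 341 in HF mouse 3, against a highest value of 229 in NP. Erythroid markers were highest in HF + LP mouse 3 at 313598 and ranged down to 60801. Skeletal muscle markers lay between 69.4 and 226, and the liver markers that were tested between 10.3 and 34.5, with neither set high in LP mouse 13 or 20. Of the lists, Myh1, Myh2, Myh4, and Myh8, Apoa1 and Apoc3, and Cd79a are not listed in the counts.

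**Figure D5:**
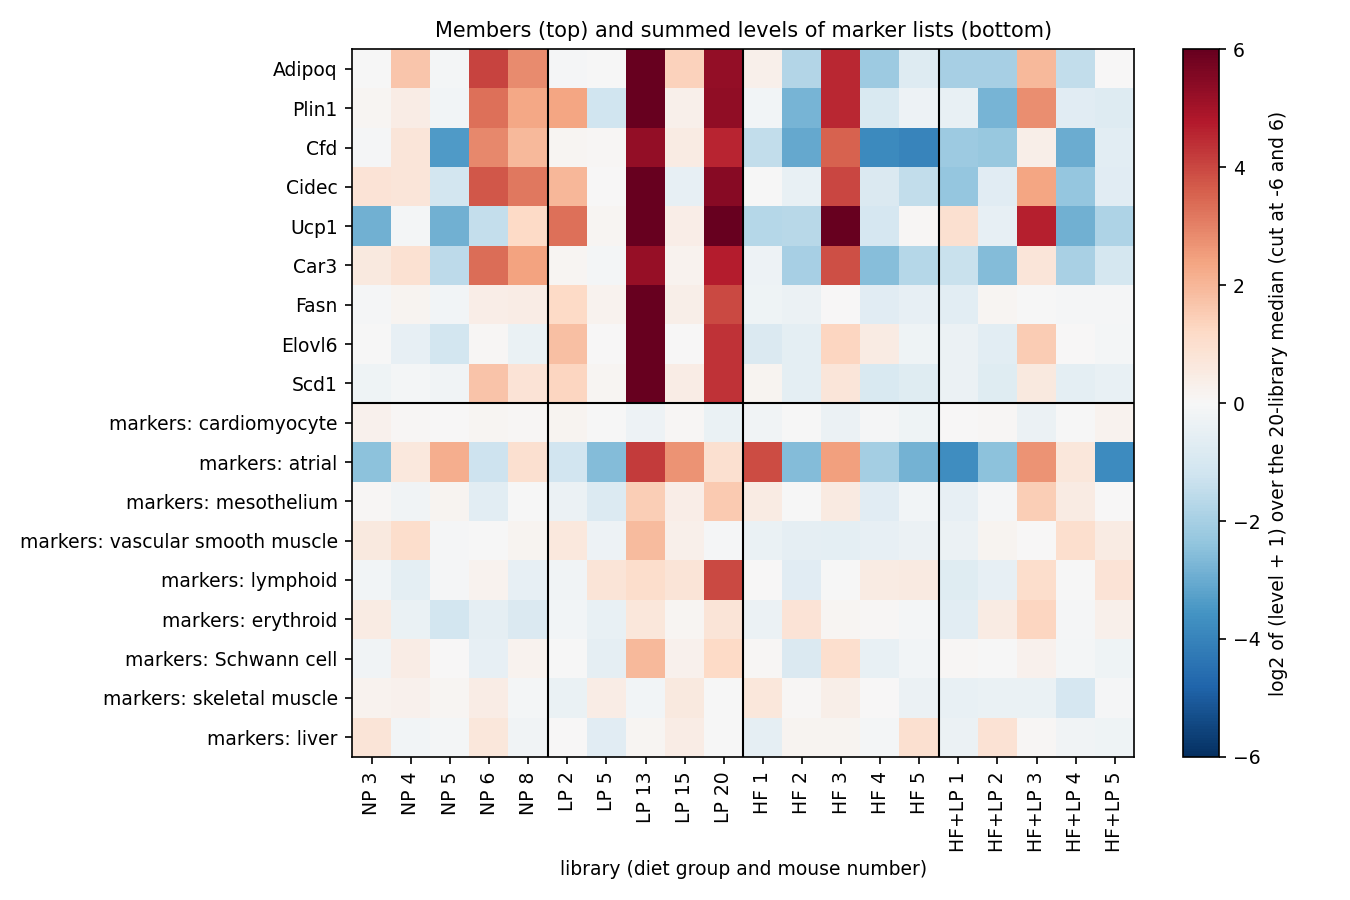
Log2 of each level plus 1 over its median in the 20 libraries, for the 9 members (top rows) and for the summed levels of 9 marker lists (bottom rows), by library. The columns of LP mice 13 and 20 are high for all members, the atrial row is high in LP mouse 13 and HF mouse 1, and the lymphoid row is high in LP mouse 20 with a sum of 643.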

How the data were processed

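Left ventricular RNA of 20 mice was measured by 3′ mRNA sequencing (QuantSeq). Reads were aligned on the BlueBee platform, and the authors deposited unnormalized counts for each Ensembl gene. The submitters' processing notes name GRCm38 and DESeq2 1.22.2. The annotation and the counting program are not given in the sources used here. Every listed gene had at least 60 counts over the libraries, and 0 columns belonged to no sample. Groups came from the sample titles. No pair of libraries was alike within sampling noise. Nothing names the mice as pooled, and p-values measure the spread between mice.

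Differences between diets were fitted with edgeR 4.0.16 in R 4.3.3 (filterByExpr by diet group, TMM, quasi-likelihood test on all 20 libraries), after the steps were tested on simulated data. Likeness used log2 normalized levels with a prior count of 2. Standard errors came from the F statistic. DESeq2 1.42.0, RLE scaling, other filters, library number, replicate block, groups compared alone, and each library left out were alternatives. The fits without LP mice 13 and 20, or without the library with the most Adipoq in each group, were chosen after seeing the data. Symbols (15917 genes) and coordinates are from GENCODE M21 on GRCm38, and promoters from RefSeq on GRCm38.p6. The members and lists were chosen with earlier results of these data known. Genes named are the members, called list genes with up to 4 more of smallest p per list, the 5 genes most like 4 members, and markers. Elovl3 and Otop1, of the brown adipocyte list, were named outside this rule after their values were seen. Marker lists were cardiomyocyte, atrial, mesothelial, vascular smooth muscle, lymphoid, erythroid, Schwann cell, skeletal muscle, and liver.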

Additional observations from a re-analysis of the deposited data

Results flagged for a closer look

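Among 36 groups of 5 values (9 members in 4 diets), 18 held a library far from the rest, judged by the gap to the nearest value as a share of the group's range (Dixon's ratio, critical value 0.71). Chance flags about 1 in 20 groups of normally distributed values. These levels are skewed counts and the members were chosen for this kind of pattern, so nothing is read from how many stood apart, and the ratios only describe the libraries. In HF, the library was mouse 3, with a ratio of 0.956 for Adipoq, 0.968 for Plin1, 0.974 for Cfd, 0.961 for Cidec, 0.99 for Ucp1, and 0.957 for Car3. In HF + LP it was mouse 3, with 0.792 for Adipoq, 0.912 for Plin1, 0.914 for Cidec, 0.928 for Ucp1, 0.837 for Elovl6, 0.804 for Scd1, and 0.79 for Car3. In LP it was mouse 13, with 0.769 for Plin1, 0.843 for Ucp1, 0.824 for Fasn, 0.743 for Elovl6, and 0.767 for Scd1. No value of NP passed. For Adipoq, Cfd, Cidec, and Car3 in LP the high value of mouse 20 kept the ratio under the critical value.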

How the results depend on the processing

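The number of genes called for HF against NP was 37. It was 157 at an adjusted p under 0.05, 163 with DESeq2, 61 with only those groups in the fit, and 76 without LP mice 13 and 20. Leaving out 1 library gave 20 to 69, with 69 without LP mouse 13, 20 without NP mouse 6 or HF mouse 4, 22 without NP mouse 8, 23 without NP mouse 5, and 24 without HF mouse 5. For HF + LP against LP it was 14. It was 45 at an adjusted p under 0.05, 84 with DESeq2, 5 with the library number as a factor, 0 with only those groups, 4 without LP mice 13 and 20, and 3 without the library with the most Adipoq in each group. Leaving out 1 library gave 1 to 16, and the count fell to 8 or less without NP mice 3, 5, 6, or 8, LP mice 2, 13, 15, or 20, HF mice 1, 3, 4, or 5, or HF + LP mice 1, 2, or 4. DESeq2 called 4 genes for LP against NP, 16 for HF + LP against HF, and 1 for the interaction, where edgeR called 0. Leaving out 1 library gave 0 for LP against NP and the interaction, and 0 to 1 for HF + LP against HF, with 1 without HF mouse 1.

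A number shared by mice in separate groups does not mark 1 animal, and their deviations did not all correlate. The mean correlation was -0.04 over 5 numbers in HF and HF + LP, -0.24 over 3 in NP and HF, -0.04 over 3 in NP and HF + LP, 0.04 over 2 in LP and HF, 0.18 over 2 in LP and HF + LP, and 0.21 for the 1 number in NP and LP. With the number as a replicate block, 2 genes were called for HF against NP and 0 for HF + LP against LP. Under this block the median log2 fold change of the members was 0.64 with 7 of 9 higher for HF against NP (-0.19 with 3 of 9 higher without it). For HF + LP against LP it was -2.53 (-4.68 without it), with a lowest adjusted p of 0.656.

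Of the white adipocyte list, 1 gene, Cd36, was called at an adjusted p under 0.05, with DESeq2, and without LP mouse 5, and leaving out 1 library gave 0 to 1. Of the fatty acid synthesis list, 1 gene, Mlxipl, was called. None was called with RLE scaling, no filter, mitochondrial genes left out, the library number, the replicate block, only the groups compared, or without the libraries with the most Adipoq (0 each), and DESeq2 called 3. Leaving out 1 library gave 0 to 1. The other 3 lists held 0 calls in every alternative. The cause of these changes was not tested. Fewer than 10 counts of a member in a library leave its ratio to other genes imprecise.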

Other observations

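The mouse with the highest Adipoq was the lightest of its group in NP (mouse 6, 33.3 g, where the others weighed up to 52.3 g), in HF (mouse 3, 56.1 g), and in HF + LP (mouse 3, 41.2 g), and the heaviest in LP (mouse 13, 36.9 g). The weights are those of the sample labels. The 9 members together made up 0.293% of all counts in LP mouse 13, 0.0745% in LP mouse 20, 0.0213% in HF mouse 3, and 0.0128% in NP mouse 6. In the remaining libraries they made up 0.00742% or less.

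LP mice 13 and 20 were alike in some marker lists and apart in others. The atrial sum was 245765 in mouse 13 and 26523 in mouse 20, and the lymphoid sum was 84.9 in mouse 13 and 643 in mouse 20. The vascular smooth muscle sum was 4871 in mouse 13 and 1228 in mouse 20. Both were the highest LP mice for mesothelial (950 and 993), Schwann cell (650 and 393), and erythroid markers (208985 and 218973), and the lowest for cardiomyocyte markers (480946 and 444247).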
